A study of Homo sapiens with 8 samples.

Results

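REST, its CoREST partners and a set of RNA-binding proteins that shape neural transcripts were followed across prostate cancer cells with high and low MYCL. The 10 genes are REST, SRRM4, SRRM3, RCOR1, RCOR2, CELF3, ELAVL3, ELAVL4, NOVA1 and RBFOX2, chosen by name from the 78691 genes of the count table, and each name occurred once. C4-2B, an adenocarcinoma line of castration-resistant prostate cancer, carried an empty vector (control) or a lentiviral vector in which the EF1A promoter drives human MYCL together with EGFP (MYCL). NCI-H660 cells, a neuroendocrine prostate cancer line, carried a control shRNA (shCtrl) or shRNA against MYCL (shMYCL). For these libraries the sources name an adenoviral vector in one place and stable shRNA transduction in another, so the knockdown vector is not settled here. Each of the 4 groups held 2 libraries, 8 in all, of poly(A) RNA sequenced as paired-end reads. The labels use the word biological only for the C4-2B control replicates and name no separate cultures for the others, so p-values measure the spread between these libraries, which may be technical.

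REST is a zinc-finger repressor that binds the RE1 element of neuronal genes and keeps them silent outside neurons. It recruits SIN3 complexes through one end and the CoREST complex, built on RCOR proteins with the demethylase KDM1A and histone deacetylases, through the other. SRRM4 and its relative SRRM3 promote inclusion of neural microexons, and SRRM4 also directs splicing of REST itself to a truncated form, while REST represses SRRM4. CELF3, ELAVL3, ELAVL4 and NOVA1 are RNA-binding proteins of neurons, and RBFOX2 is a splicing regulator with broad expression. SRRM4 and loss of REST activity are known in neuroendocrine prostate cancer.

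The core of the RE1 element, CAGCACC, any 2 bases, then GGACAGC, is shown for the genes that hold it because REST acts through it. Both strands were searched in GRCh38 within 5 kb of the annotated start of each gene. An exact core was found near 0.469% of 20033 protein-coding starts and a core with at most 1 letter differing near 2.25%, against 1 and 3 of these 10 genes. The CELF3 site, chr1:151717103-151717118 on the minus strand, has every letter and is centred at -307 from the start. The ELAVL3 site, chr19:11481967-11481982 on the plus strand, is centred at -928, and the SRRM4 site, chr12:118981835-118981850 on the plus strand, lies in an exon, centred at 301 from the start. Coordinates give the 16 bases of the core with its spacer, each line adds the bases on either side, and capitals mark letters that match the core.
CELF3: cttcCAGCACCggGGACAGCtcc
ELAVL3: gcttCAGCACCacaGACAGCaat
SRRM4: gtttCAGCACtttGGACAGCgcc

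SRRM3, the member with the largest change in C4-2B cells, had no such core within 5 kb, but its promoter window from RefSeq (GRCh38.p14, chr7:76201646-76201945, plus strand, 250 bases before to 50 after the start) holds both parts of it apart from each other. In the 300 bases below, capitals mark GGACAGC, which lies on the minus strand and so reads GCTGTCC here, at -3, and CAGCACC at +25.
SRRM3: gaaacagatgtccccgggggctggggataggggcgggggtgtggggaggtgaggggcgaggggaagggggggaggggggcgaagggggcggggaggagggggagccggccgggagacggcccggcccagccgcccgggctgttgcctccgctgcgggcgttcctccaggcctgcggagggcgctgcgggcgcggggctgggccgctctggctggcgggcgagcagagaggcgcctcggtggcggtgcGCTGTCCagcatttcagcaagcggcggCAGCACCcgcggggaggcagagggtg
Windows were matched for 7 of the 10 genes. CAGCACC occurred in 7.75% of all 35116 windows and GGACAGC in 6.03%. CACGTG, the canonical E-box of MYC family proteins, occurred in 7.26%, and among the matched members only a window of ELAVL4 held it, at +28. Of the RE1 parts, GGACAGC also lay in windows of REST and RCOR1 and CAGCACC in windows of SRRM4 and NOVA1, and SRRM3 is shown because its window holds both. These are matches of letters in a window and not measured binding.

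Library totals ran from 15177058 to 32344150 counts, with the C4-2B control libraries the deepest. Mitochondrial genes took 9.63% to 10.7% of counts in C4-2B and 3.5% to 3.83% in NCI-H660 libraries. The lines bore their labelled markers. The summed level of 6 luminal prostate genes was 2176 to 2188 TPM (a level scaled by gene length and library) in C4-2B control, 1408 to 1540 TPM in C4-2B MYCL and at most 2.28 TPM in NCI-H660 libraries. In NCI-H660 cells 3 of the 6 were at 0 counts in both groups. Of the neuroendocrine markers, INSM1, a zinc-finger factor of neuroendocrine cells, had 978 and 1081 counts in shCtrl, 541 and 605 counts in shMYCL and 0 counts in the C4-2B libraries. There the group means of CHGA, SYP, NCAM1 and FOXA2 were also under 1 TPM in both groups, with SYP at 1.07 TPM in the second MYCL library. DLL3, a Notch ligand, was at 5.87 to 6.5 TPM in the C4-2B libraries. MYCL, a MYC family transcription factor, was at 12.1 and 14.2 CPM (counts scaled by library size with TMM) in C4-2B control, 3733 and 4242 CPM in C4-2B MYCL, 104.2 and 81.8 CPM in shCtrl and 10.3 and 12 CPM in shMYCL. Overexpression in C4-2B cells thus ran far above the level in NCI-H660 control cells, and shMYCL libraries lay near the level of C4-2B control cells. MYCL changed by a log2 value (edgeR's quasi-likelihood test) of 8.26 (SE 0.12, adjusted p = 3.91e-09) in C4-2B and -3.06 (SE 0.15, adjusted p = 4.29e-09) in NCI-H660 cells.

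The level of each gene per length separated those used in both lines from those near 0 in C4-2B cells. In C4-2B control the order was RBFOX2 (19.8 ± 0.90 TPM, SD, n = 2), RCOR1 (14.3 ± 0.60), REST (13.4 ± 0.77), NOVA1 (2.63 ± 0.44), RCOR2 (0.571 ± 0.20) and SRRM3 (0.338 ± 0.0051). CELF3, ELAVL3, SRRM4 and ELAVL4 were under 0.12 TPM in each C4-2B library. RCOR1 and REST differed by about their spread there. With MYCL the order was RBFOX2 (15.7 ± 1.5 TPM), RCOR1 (13.1 ± 2.5), REST (11 ± 2.4), NOVA1 (3.16 ± 1.4), RCOR2 (1.83 ± 0.24) and SRRM3 (1.22 ± 0.26). There RBFOX2 and RCOR1, RCOR1 and REST, and NOVA1 and RCOR2 did not differ beyond their spread. In NCI-H660 shCtrl, RCOR1 (32 ± 2.2 TPM), RBFOX2 (31.9 ± 6.9) and ELAVL3 (31.8 ± 0.62) did not differ beyond their spread. NOVA1, at 25.8 ± 3.5 TPM, was lower on average but did not differ from RBFOX2 beyond their spread. RCOR2 (10.7 ± 1.6 TPM), REST (10.1 ± 0.0064), SRRM3 (9.5 ± 1.8) and CELF3 (8.36 ± 0.026) formed the next tier. In it RCOR2, REST and SRRM3 did not differ beyond their spread, nor did SRRM3 and CELF3. In shMYCL the order opened with ELAVL3 (47.6 ± 0.39 TPM), NOVA1 (33.8 ± 6.9), RBFOX2 (30.7 ± 0.96) and RCOR1 (23.3 ± 0.60), followed by SRRM3 (12.2 ± 0.85), REST (10.2 ± 0.14), RCOR2 (9.09 ± 0.50) and CELF3 (8.04 ± 0.16), where NOVA1 and RBFOX2 did not differ beyond their spread.

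**Figure D1:**
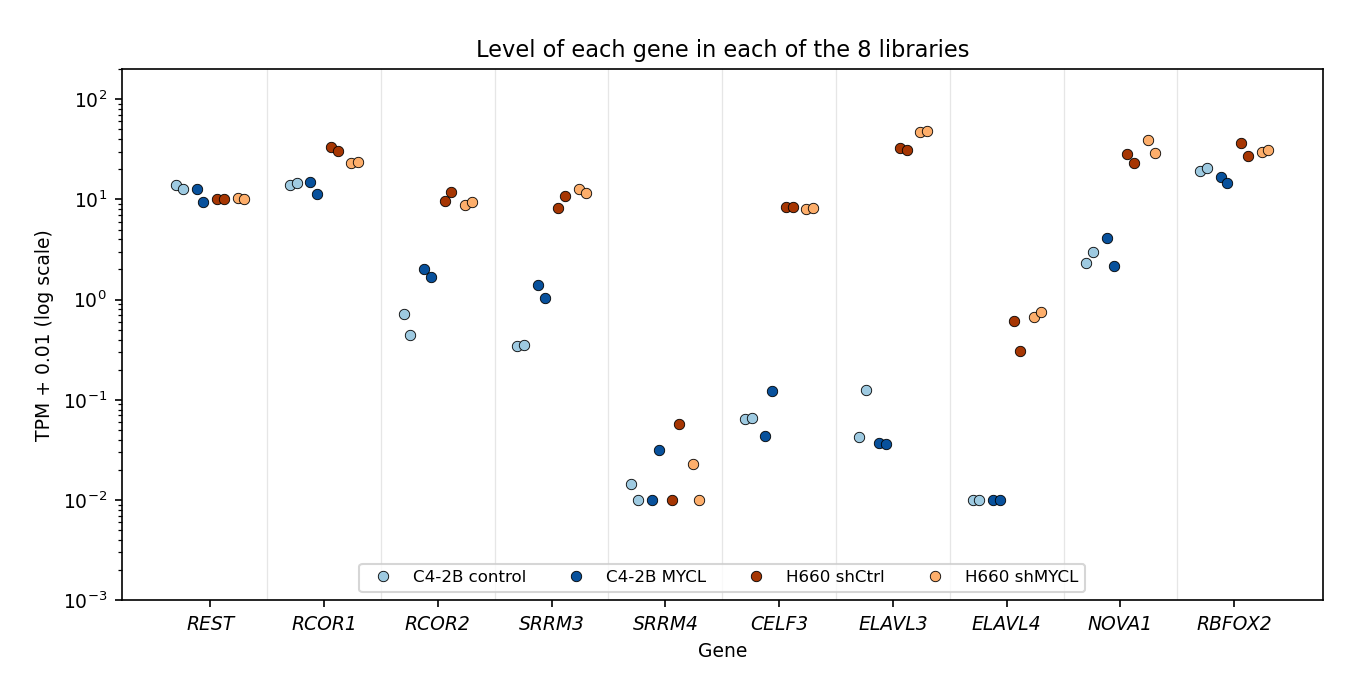
Level of the 10 genes in each of the 8 libraries, as TPM + 0.01 on a log axis, with colours for the 4 groups. REST lies between 9.31 and 13.9 TPM in every library, SRRM4 stays at the bottom in all 8, and ELAVL3 and CELF3 separate the lines most widely among the genes with counts in both.

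SRRM4 was close to undetectable in all conditions. It had 1 and 0 counts in C4-2B control, 0 and 3 in C4-2B MYCL, 0 and 1 in shCtrl and 1 and 0 in shMYCL, 6 counts over the 8 libraries with an exact 95% Poisson interval of 2.20 to 13.1 that covers counting error only. No group stood apart, SRRM4 passed no filter on low counts, and a difference between groups was not detectable at this depth. SRRM3 made up at least 97.96% of the summed TPM of SRRM3 and SRRM4 in every library. The SRRM4 gene (ENSG00000139767) lies at chr12:118981541-119163051.

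In C4-2B cells, the comparison of MYCL with control cells addressed which neural regulators follow a rise in MYCL. SRRM3 and RCOR2, the CoREST paralog most used in the nervous system, rose from low levels, while REST, RCOR1, RBFOX2 and NOVA1 did not pass the test. The other 4 genes, SRRM4, CELF3, ELAVL3 and ELAVL4, were too low to be tested. Of the 6 tested, 2 were called higher and 0 lower by edgeR's quasi-likelihood test (Benjamini-Hochberg adjusted p under 0.05, log2 fold change of 0.5 or more in size). Over all 16866 genes tested, 19.9% were called, 11.8% higher and 8.12% lower.

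SRRM3 (ENSG00000177679, chr7:76201896-76287288) had 31 and 23 counts in the control libraries against 78 and 59 counts with MYCL, or 1.01 and 1.02 CPM against 4.44 and 3.56 CPM. The groups did not overlap, and the log2 fold change was 1.98 (SE 0.32, adjusted p = 0.0017). RCOR2 (ENSG00000167771, chr11:63911230-63917164) had 52 and 20 counts in the control libraries against 88 and 67 counts with MYCL, or 1.69 and 0.888 CPM against 5.01 and 4.05 CPM. Its control libraries differed from each other more than those of SRRM3, but both lay under both MYCL libraries (log2 fold change 1.79, SE 0.36, adjusted p = 0.0050). Without either control or either MYCL library in turn the log2 fold change of RCOR2 ran from 1.42 to 2.34 and that of SRRM3 from 1.82 to 2.13, all past the threshold. On unfiltered log2(TPM + 1) values neither gene passed, at adjusted p values of up to 0.0841, and SRRM3 also missed on log2(TPM + 0.1), both by limma. The raised levels remained under those of NCI-H660 shCtrl libraries, where SRRM3 was at 15.8 and 21.8 CPM and RCOR2 at 14.4 and 18.4 CPM.

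REST (ENSG00000084093, chr4:56907876-56966808) was at 83.8 and 78.4 CPM in control and 78.5 and 65.3 CPM in MYCL libraries. The upper MYCL library was level with the lower control library, and the log2 fold change of -0.17 (SE 0.10, adjusted p = 0.22) was not past the threshold. RCOR1, the broadly expressed CoREST subunit (ENSG00000089902, chr14:102592649-102730561), was at 68.5 and 72.1 CPM against 77.8 and 63.9 CPM, with overlapping groups and a log2 fold change of 0.02 (SE 0.10, adjusted p = 0.90). RBFOX2 (ENSG00000100320, chr22:35738736-36028824) was at 77.4 and 89.1 CPM against 93.0 and 82.0 CPM, with overlapping groups (log2 fold change 0.08, SE 0.10, adjusted p = 0.56). NOVA1, which binds YCAY-type clusters in pre-mRNA (ENSG00000139910, chr14:26443090-26598033), was at 5.36 and 7.11 CPM against 7.23 and 5.25 CPM (log2 fold change 0.02, SE 0.24, adjusted p = 0.97). The signs of the RCOR1, RBFOX2 and NOVA1 values changed under some alternatives. The REST value stayed negative under all 16 alternatives, from -0.30 to -0.04, and was called under none.

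**Figure D2:**
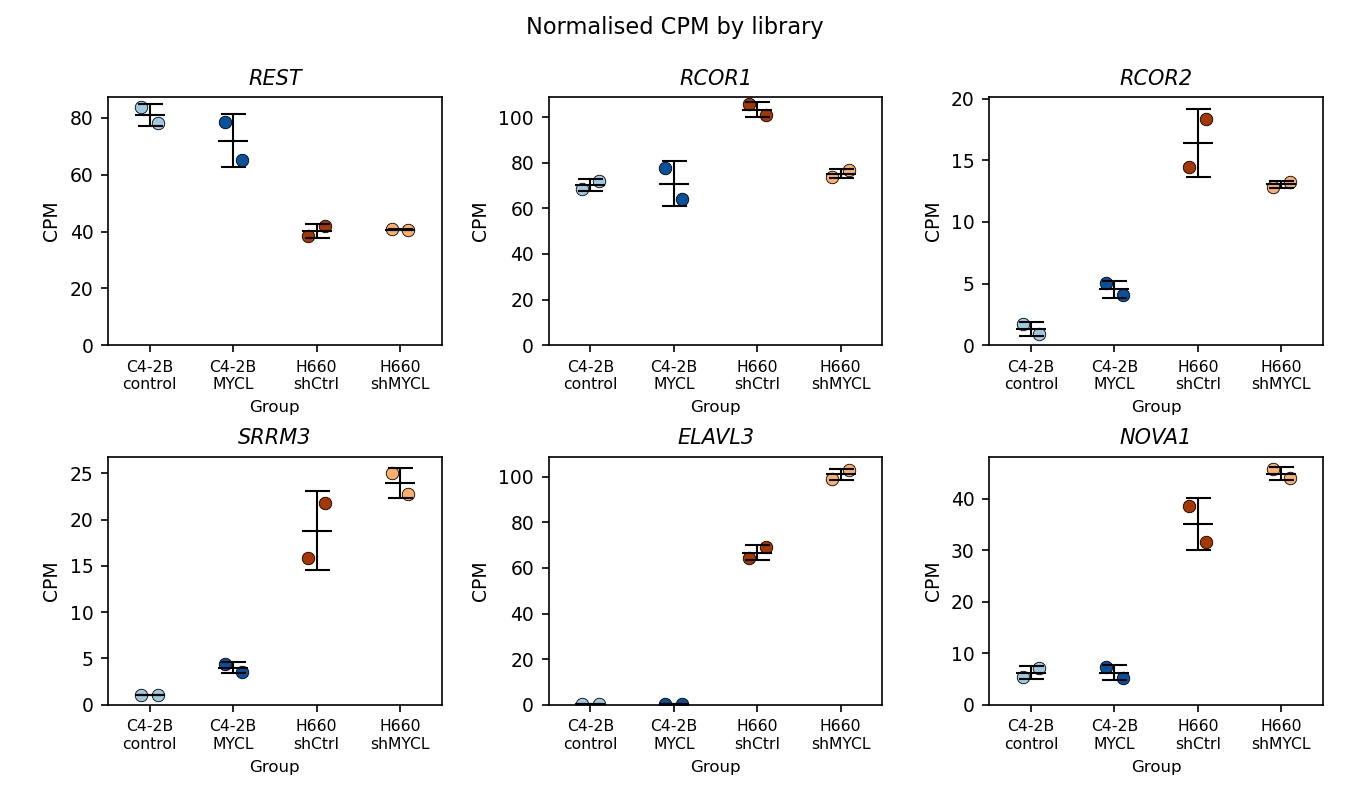
TMM-scaled CPM of REST, RCOR1, RCOR2, SRRM3, ELAVL3 and NOVA1 in each library (points), with the mean and SD of each group of 2 libraries. SRRM3 rises from 1.01 and 1.02 CPM to 4.44 and 3.56 CPM in C4-2B cells, and ELAVL3 from 64.3 and 69.1 CPM to 99.3 and 102.9 CPM in NCI-H660 cells with shMYCL.

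The genes too low to test in C4-2B cells stayed low with MYCL. CELF3, a CELF family splicing regulator of neurons (ENSG00000159409, chr1:151700058-151716803), had 8 and 6 counts in the control libraries against 3 and 6 with MYCL. ELAVL3 (ENSG00000196361, chr19:11451326-11481046), a neuronal Hu protein, had 4 and 3 against 2 and 2 counts. ELAVL4, another neuronal Hu protein (ENSG00000162374, chr1:50024029-50203772), had 0 counts in all 4 C4-2B libraries, and the floor is 3 counts in each. Intervals for such sums were wide, 7.65 to 23.5 for the 14 control counts of CELF3 and 4.12 to 17.1 for its 9 MYCL counts.

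Markers of other cell types were measured beside the C4-2B result. Of 8 stromal, endothelial and immune genes, summed levels were 11.9 to 14.6 TPM in control and 29.3 to 30.5 TPM in MYCL libraries. CD68, a lysosomal protein used as a macrophage marker, and COL1A1, a collagen, were called higher (log2 fold changes 1.53, SE 0.13, and 0.74, SE 0.13), while DCN, LUM, PECAM1, PTPRC and CD3E were under 1 TPM in both groups. Their part in the SRRM3 and RCOR2 values was not tested. In bulk RNA fewer cells of a type and less RNA per cell cannot be told apart.

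In NCI-H660 cells the comparison of shMYCL with shCtrl addressed which of these regulators depend on MYCL in a neuroendocrine line. ELAVL3 rose and was the only member called, REST lay between 38.5 and 41.8 CPM in all 4 libraries, and neither SRRM3 nor RCOR2 was called lower. Of 9 tested members 1 was called higher and 0 lower, and over all 16980 genes tested 16.2% were called, 7.18% higher and 8.99% lower.

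ELAVL3 was at 64.3 and 69.1 CPM in shCtrl and 99.3 and 102.9 CPM in shMYCL libraries. Both knockdown libraries lay above both controls, with a log2 fold change of 0.60 (SE 0.10, adjusted p = 7.72e-04). Of its exon bases 5.38% overlap another protein-coding gene on the same strand, and gene counts do not say how reads there were divided. NOVA1 was at 38.6 and 31.5 CPM in shCtrl and 45.7 and 44 CPM in shMYCL libraries. These groups did not overlap either, but the log2 fold change of 0.35 (SE 0.12, adjusted p = 0.049) was under the fold threshold. Without the first shCtrl library it was 0.51 and was called.

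RCOR1 was at 105.5 and 101.1 CPM in shCtrl and 73.9 and 76.7 CPM in shMYCL libraries. The groups stood well apart, yet the log2 fold change of -0.46 (SE 0.10, adjusted p = 0.0043) was just inside the threshold of 0.5 and was not called. SRRM3 was at 15.8 and 21.8 CPM against 25.1 and 22.8 CPM, a log2 fold change of 0.34 (SE 0.15, adjusted p = 0.12). The lower shCtrl library carried most of that difference, and without the other shCtrl library the value was 0.59 and was called. RCOR2 was at 14.4 and 18.4 CPM against 12.9 and 13.3 CPM (log2 fold change -0.33, SE 0.16, adjusted p = 0.13).

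REST was at 38.5 and 41.8 CPM in shCtrl and 40.7 and 40.6 CPM in shMYCL libraries, with both knockdown values between the controls (log2 fold change 0.01, SE 0.12, adjusted p = 0.95). CELF3 was at 14.5 and 14.9 against 14.1 and 14.1 CPM (log2 fold change -0.07, SE 0.14, adjusted p = 0.78). RBFOX2 was at 111.0 and 96.3 against 90 and 94.1 CPM (log2 fold change -0.17, SE 0.11, adjusted p = 0.26). ELAVL4, with only 13 and 10 counts against 17 and 14, had a log2 fold change of 0.62 with an SE of 0.54 (adjusted p = 0.43), too imprecise to place.

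**Figure D3:**
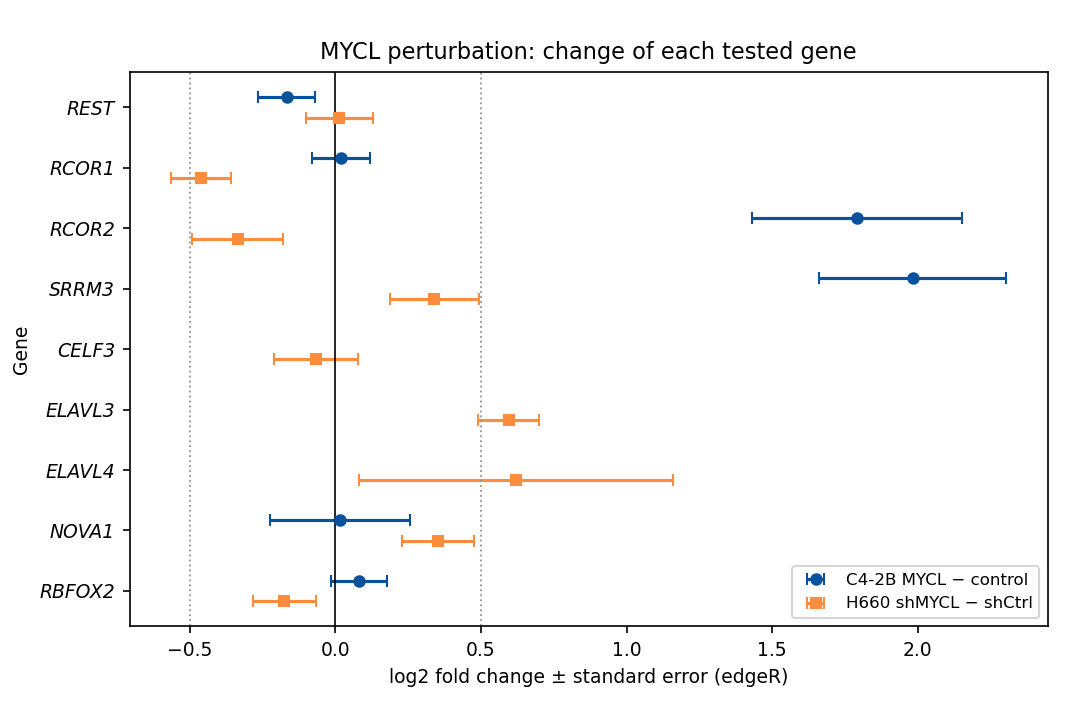
Log2 fold change of each tested member, with its SE, for MYCL against control in C4-2B and for shMYCL against shCtrl in NCI-H660 cells. Dotted lines mark the threshold of 0.5 in either direction. SRRM3 (1.98) and RCOR2 (1.79) stand clear of it in C4-2B cells, ELAVL3 (0.60, SE 0.10) lies past it by less than its SE with shMYCL, RCOR1 (-0.46) falls just inside, and ELAVL4 (0.62) lies past it with an SE of 0.54 and was not called.

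The 2 perturbations were set against each other by testing the effect of high against low MYCL in C4-2B cells minus that in NCI-H660 cells, in a fit of all 4 groups. SRRM3 and RCOR2 differed between the lines, each with a larger effect of high MYCL in C4-2B cells. The difference was 2.32 on the log2 scale for SRRM3 (SE 0.31, adjusted p = 2.76e-04) and 1.44 for RCOR2 (SE 0.36, adjusted p = 0.013). The RCOR2 call was lost on log2(TPM + 1), with or without a filter or centring, down to 0.64 (adjusted p = 0.16 unfiltered, limma), and the SRRM3 call on the unfiltered values (1.06, adjusted p = 0.054). For RCOR1 it was -0.44 (SE 0.14, adjusted p = 0.041), under the fold threshold. No other member was called, with adjusted p values of at least 0.32. CELF3, ELAVL3 and ELAVL4 were too low to test in C4-2B cells and entered this fit only through the NCI-H660 libraries. Their C4-2B part was poorly estimated (SE 0.55 for CELF3 and 0.75 for ELAVL3) or, for ELAVL4, not estimable. For these genes the test could not decide whether the lines differ. Of the 9 members tested 2 were called higher and 0 lower, against 17.9% of all 19605 genes, 9.59% higher and 8.33% lower. The vector, the direction of the perturbation and the size of the MYCL change also differ between the lines and cannot be told apart from the line.

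The NCI-H660 shCtrl libraries were then compared with the C4-2B control libraries, the same libraries that serve as controls in the comparisons above. REST was lower in the neuroendocrine line by counts, and RCOR2, SRRM3, NOVA1 and RCOR1 were higher. CELF3, ELAVL3 and ELAVL4 passed the filter on low counts only through the NCI-H660 libraries in which they are high, so their difference was bound to appear and the count of members called is only a description. Of 9 tested members 7 were called higher and 1 lower, where 69.8% of all 19605 genes were called, 36.5% higher and 33.3% lower.

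REST fell from 83.8 and 78.4 CPM in C4-2B control to 38.5 and 41.8 CPM in shCtrl libraries, a log2 difference of -1.01 (SE 0.10, adjusted p = 8.68e-07). Per length the difference was smaller, at 13.9 and 12.8 TPM against 10.1 and 10.1 TPM, and on log2(TPM + 1) it was -0.37 and not called. The median gene moved by 0.03 on TMM-scaled counts and by 0.52 on log2(TPM + 1), and the counts of REST for each unit of TPM, relative to the library total, varied 1.61-fold over the libraries. The cause of the gap between the scales was not tested. Centring each library on its median gave -1.12 for REST, which was called. Relative to RCOR1, the TPM ratio of REST was 1.00 and 0.871 in C4-2B control, 0.852 and 0.819 in C4-2B MYCL, 0.301 and 0.333 in shCtrl and 0.449 and 0.425 in shMYCL. Relative to KDM1A, the demethylase of CoREST, it was 0.279 to 0.341 in C4-2B and 0.0553 to 0.0649 in NCI-H660 libraries. RCOR1 and KDM1A were themselves higher in NCI-H660 cells, whereas the partner HMG20B was lower than in C4-2B cells, at 82.3 and 82.1 TPM in C4-2B control and 25.3 and 32.9 TPM in shCtrl, more so than REST, so such a ratio depends on the partner.

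RCOR1 was at 68.5 and 72.1 CPM in C4-2B control and 105.5 and 101.1 CPM in shCtrl, a log2 difference of 0.56 (SE 0.10, adjusted p = 1.62e-04) that fell to 0.36 and was lost after centring the TPM values. RCOR2 (log2 difference 3.62, SE 0.26), SRRM3 (4.21, SE 0.22) and NOVA1 (2.50, SE 0.17) were called under every alternative tried. CELF3 was at 0.260 and 0.266 CPM in C4-2B control and 14.5 and 14.9 CPM in shCtrl (log2 difference 5.77, SE 0.28). ELAVL3 was at 0.130 and 0.133 CPM against 64.3 and 69.1 CPM (log2 difference 8.92, SE 0.19), where the C4-2B value rests on 7 counts with an exact 95% Poisson interval of 2.81 to 14.4. For ELAVL4, with 0 counts in both C4-2B control libraries, shCtrl was at least 5.36-fold higher against a floor of 3 counts per library. RBFOX2 had a log2 difference of 0.32 (SE 0.10, adjusted p = 0.013), under the fold threshold. It was called at 0.64 on log2(TPM + 1) and 0.67 on log2(TPM + 0.1), and its sign changed to -0.11 on centred TPM values.

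Within families the lines also used different members. RCOR2 made up 1.41% to 2.33% of the summed TPM of RCOR1, RCOR2 and RCOR3 in C4-2B control, 5.68% to 6.16% in C4-2B MYCL, 11% to 14.7% in shCtrl and 10.1% to 10.9% in shMYCL libraries. RCOR1 made up 37.7% to 38.5% in shCtrl and 26.6% to 27.3% in shMYCL libraries, and RCOR3 47.6% to 50.5% and 61.8% to 63.3%. Of the ELAVL family, ELAVL1, the Hu protein found in all tissues, took 98.1% to 99.3% in C4-2B libraries. In shCtrl libraries it took 57.9% to 58.4%, with 24.1% to 25.7% from ELAVL2 and 16% to 17.4% from ELAVL3, and ELAVL3 took 22.1% to 22.5% in shMYCL libraries. CELF1 took at least 98.2% of the CELF family in C4-2B libraries, and in shCtrl libraries CELF1 took 53.4% to 54.7%, CELF4 23.5% to 25.2% and CELF3 12.6% to 14.1%. NOVA1 and RBFOX2 supplied at least 99.8% and 99.5% of their families in every library.

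**Figure D4:**
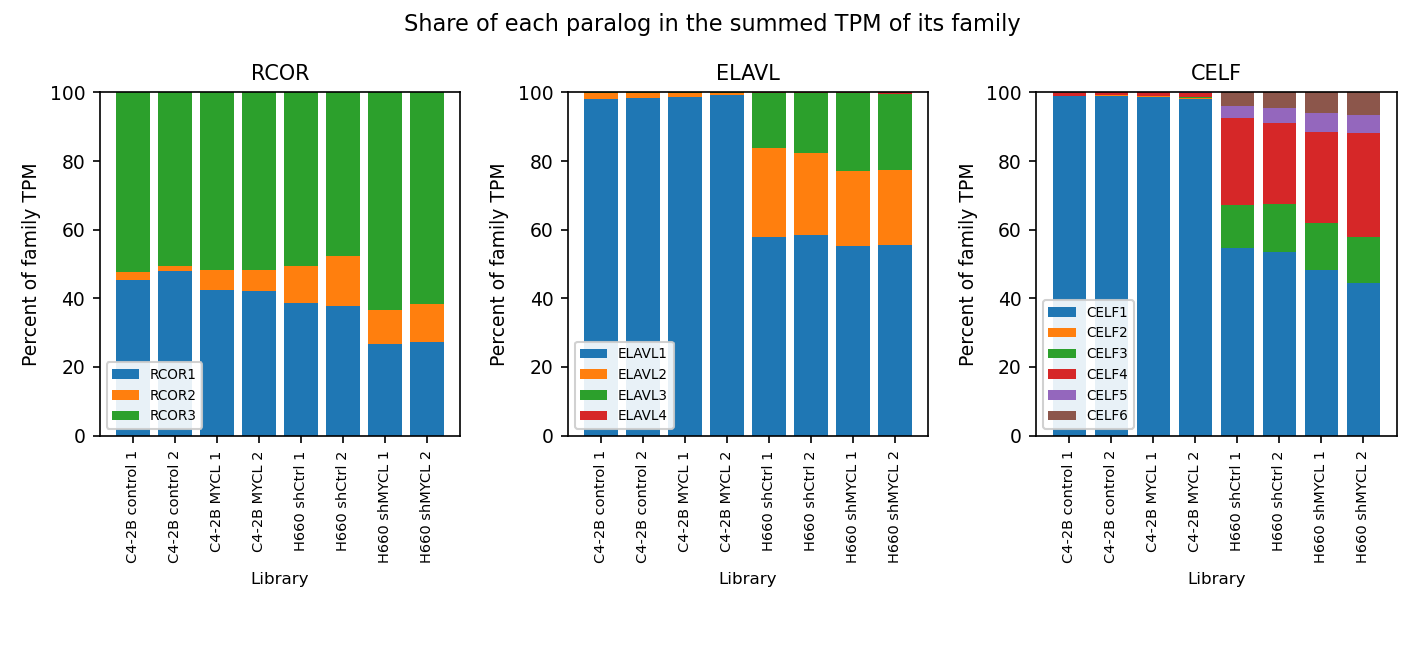
Share of each member in the summed TPM of the RCOR, ELAVL and CELF families, as stacked percent bars, one bar per library. RCOR2 is under 2.4% in C4-2B control, between 5.68% and 6.16% in C4-2B MYCL and above 10% in NCI-H660 libraries, and ELAVL3 and CELF3 appear as visible bands only in NCI-H660 libraries.

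Partners of REST were read against the shares of all genes called, 19.9% in C4-2B and 16.2% with shMYCL. Of 18 corepressor and partner genes, 0 were called in C4-2B cells and their median log2 fold change was -0.04, beside 0.00 for all genes, and the smallest p belonged to SMARCA4, an ATPase of SWI/SNF (-0.45, SE 0.07, adjusted p = 0.0016, under the fold threshold). With no minimum on the fold change 2 of them were higher and 5 lower. In NCI-H660 cells 0 were higher and 1 lower (median 0.06), HMG20B, a CoREST complex subunit, at 18.8 and 25.3 CPM in shCtrl and 11.6 and 14.1 CPM in shMYCL libraries (log2 fold change -0.78, SE 0.17, adjusted p = 0.0030). Of 8 genes for REST turnover and the phosphatases that stabilise it, 1 was lower in C4-2B cells, the phosphatase gene CTDSPL (-0.52, SE 0.10, adjusted p = 0.0040), and 1 higher in NCI-H660 cells, TERF2, a telomere protein that binds REST (0.91, SE 0.12, adjusted p = 8.90e-05). Between the lines 10 corepressor genes were called higher and 3 lower in NCI-H660 cells, a share near the 69.8% of all genes, among them KDM1A (log2 difference 1.21, SE 0.08) and RCOR3 (1.10, SE 0.10) higher and HMG20B lower (-2.14, SE 0.13). Of the turnover genes 1 was higher there and 2 lower.

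A list of 41 neuronal genes known as REST targets held genes that rose in each perturbation. In C4-2B cells 22 could be tested, of which 6 were called higher and 0 lower (median log2 change 0.48), beside 11.8% higher and 8.12% lower of all genes. L1CAM, a neural adhesion molecule, was at 1.56 and 1.47 CPM in control and 6.78 and 7.91 CPM in MYCL libraries (log2 fold change 2.28, SE 0.25, adjusted p = 2.73e-04). STX1A, a syntaxin of synaptic vesicle fusion, was at 3.61 and 3.60 CPM against 7.01 and 7.85 CPM (1.05, SE 0.21, adjusted p = 0.0054). MAPK8IP1 (0.75, SE 0.11) and SYT4 (0.60, SE 0.18) also rose, and without the first control library 3 of the list were called. On log2(TPM + 1) values, 3 were called too.

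In NCI-H660 cells, where 38 of the target list could be tested, 8 were called higher and 1 lower with shMYCL (median 0.17), beside 7.18% higher and 8.99% lower of all genes. CALB1, a calcium buffer, was at 6.99 and 6.48 CPM in shCtrl and 17.1 and 16.8 CPM in shMYCL libraries (log2 fold change 1.33, SE 0.16, adjusted p = 3.68e-05). CPLX1, a complexin of vesicle fusion (1.29, SE 0.15), CHRM4, a muscarinic receptor (1.03, SE 0.13), and VGF, a secreted neuropeptide precursor (0.99, SE 0.12), rose as well. RAB3A, a vesicle GTPase, fell from 6.6 and 10.3 CPM to 2.12 and 2.79 CPM (-1.79, SE 0.28, adjusted p = 2.64e-04). Of 7 neuroendocrine markers tested in the same libraries, 0 were called higher and 2 lower, beside 7.18% and 8.99% of all genes. The factor INSM1 (-0.65, SE 0.11) was among those that fell, while SYP was at 80.7 and 92.6 CPM in shCtrl and 88.1 and 108.2 CPM in shMYCL libraries. On the unfiltered log2(TPM + 1) values, which called 1 gene of all, none of the target list was called. Between the lines 39 of the list were tested and 35 were higher and 2 lower in NCI-H660 shCtrl, beside 36.5% higher and 33.3% lower of all genes. Many of them, like some members, were tested only through the NCI-H660 libraries, so the count is only a description.

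Splicing regulators of epithelial, muscle and neural programs were called in both directions in C4-2B cells. Of 14 tissue-regulated splicing factors outside the members' families, 12 were tested in C4-2B cells, 2 were called higher and 4 lower, beside 11.8% and 8.12% of all genes. ESRP1, an epithelial splicing regulator, was at 106.1 and 102.4 CPM in control and 173.1 and 222.4 CPM in MYCL libraries (log2 fold change 0.93, SE 0.11, adjusted p = 3.68e-04), while its paralog ESRP2 fell from 72.5 and 68.8 to 45.2 and 44.7 CPM (-0.65, SE 0.08, adjusted p = 4.29e-04). MSI1, a Musashi protein of neural progenitors, rose (1.44, SE 0.37, adjusted p = 0.017) and was lost without the second control library. PTBP1, the repressor of neuronal exons, fell from 223.2 and 227.0 to 138.4 and 155.2 CPM (-0.61, SE 0.08, adjusted p = 5.14e-04). MBNL1, which favours adult splicing patterns (-0.67, SE 0.07), and its paralog MBNL3 (-1.25, SE 0.10) fell too. In NCI-H660 cells 13 were tested, 0 were higher and 2 lower, beside 7.18% and 8.99% of all genes, MBNL2 (-0.68, SE 0.14) and MSI2 (-0.61, SE 0.11), and PTBP1 was at 359.0 and 366.4 CPM in shCtrl and 353.0 and 335.8 CPM in shMYCL libraries. Of 12 paralogs of the members, 6 were tested in C4-2B cells and 8 among NCI-H660 libraries, and 0 were called in either. Between the lines 10 of 13 tested splicing factors were called higher and 2 lower in NCI-H660 shCtrl, such as KHDRBS3, a STAR family regulator, higher (log2 difference 5.43, SE 0.15) and ESRP2 lower (-3.60, SE 0.13), and 4 of 8 tested paralogs were higher and 1 lower, such as ELAVL2 higher (4.93, SE 0.16) and CELF1 lower (-1.06, SE 0.09). Over all genes 36.5% were higher and 33.3% lower there. CELF5 and CELF6, both among the higher paralogs, had at most 2 counts in any C4-2B library and were tested only through the NCI-H660 libraries. The same held for MBNL2, among the higher splicing factors (log2 difference 6.88, SE 0.35), with 5 counts in each C4-2B control library. These counts of called genes are therefore only a description. For the difference in MYCL effect between the lines, 0 of 18 corepressor genes and 0 of 8 paralogs were called. Of 8 turnover genes 1 was higher and 1 lower, beside 9.59% and 8.33% of all genes. Of 39 REST targets 10 were higher and 1 lower, and of 13 splicing factors 4 were higher and 3 lower. Only 22 of the targets could be tested in C4-2B cells alone. For others, such as CALB1 at 0 counts in every C4-2B library, the C4-2B part could not be estimated. These counts are therefore only a description. Splicing itself was not measured, since gene counts do not separate isoforms, the truncated form of REST included.

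**Figure D5:**
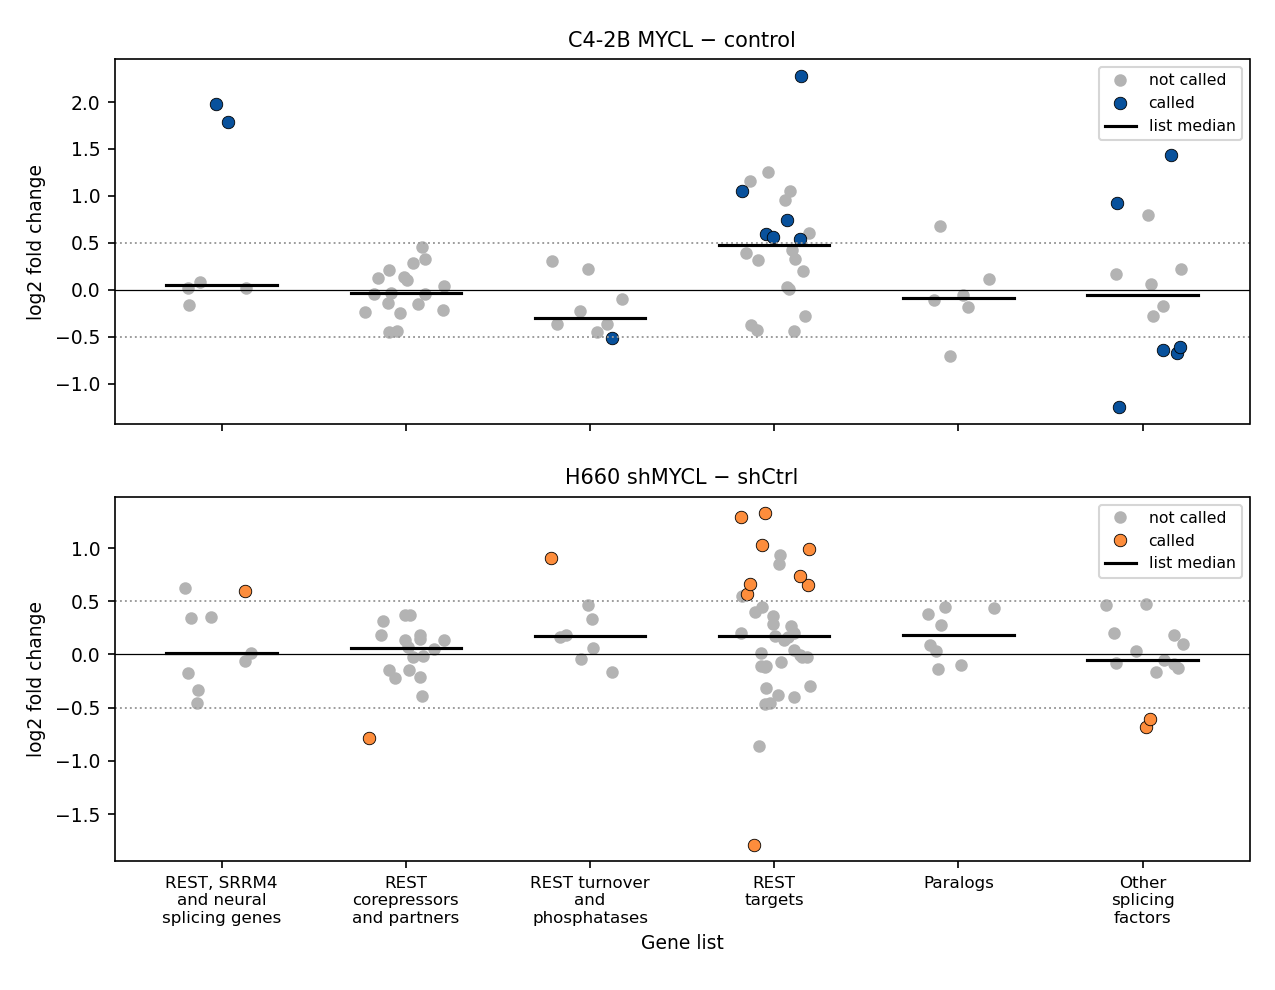
Log2 fold changes of the tested genes of each list, for MYCL against control in C4-2B and shMYCL against shCtrl in NCI-H660 cells, with a bar at each list's median and called genes in colour. The REST target list has a median of 0.48 with MYCL and 0.17 with shMYCL, and the corepressor list lies at -0.04 and 0.06.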

How the data were processed

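Gene-level estimated counts were deposited by the authors for 8 libraries, without normalization between libraries, and 22.4% of the non-zero values are more than 0.01 from a whole number, none of them among the 80 values of the members. TPM values were deposited by the authors and are described as counts per length with a common library sum, for 65535 genes against 78691 in the count table. Counts for each unit of TPM, relative to the library total, varied between libraries from 1.54-fold (ELAVL4) to 6.72-fold (SRRM4) over the members, so TPM orders, shares and ratios do not rest on 1 fixed length per gene. The submitters' processing notes name hg38, and the aligner and counter are not given in the sources used here.

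Counts were rounded and tested with edgeR 4.0.16 (R 4.3.3): TMM, filterByExpr, quasi-likelihood test, Benjamini-Hochberg adjustment over all genes tested, with calls at adjusted p under 0.05 and log2 fold changes of 0.5 or more in size. Each line was fitted on its own for its perturbation, and all 4 groups together between lines. Biological coefficients of variation were 0.083 (C4-2B), 0.097 (NCI-H660) and 0.093 (all libraries). With 2 against 2, an exact permutation test cannot give a p below 0.333. CPM were scaled by TMM over the 8 libraries. Poisson intervals and the floor of 3 counts cover counting error only, since reads carried no molecular identifiers.

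Members and lists were chosen with earlier results of these data known. The lists came from general knowledge. Named genes were all members, MYCL and, per list and comparison, up to 4 called genes in each direction by size whose groups did not overlap, or the gene with the smallest p where none was called. KDM1A as a ratio, PTBP1 in NCI-H660 cells and other marker genes were added after their values were seen. Replicate numbers did not pair the samples (correlation of same-numbered deviations -0.0030 for C4-2B, 0.018 for NCI-H660). Positions came from GENCODE 44, in which 61458 identifiers matched, and promoters from RefSeq. On simulated data with 200 genes changed by 1.5 on the log2 scale, edgeR called 200 and 9 unchanged genes for the C4-2B perturbation, and 200 and 11 for that of NCI-H660. The changed genes were drawn from well-counted ones and all genes were given the same spread. Recovery was therefore not measured for genes as low as SRRM3 in C4-2B cells. Alternatives were DESeq2 1.42.0, limma 3.58.1 on log2 TPM, other filters, size factors and thresholds, a replicate block, a fit of all groups and leaving out each library. Centring the TPM values was chosen after seeing the data. Tables and figures used Python 3.11.15, pandas 2.3.3, numpy 2.4.6 and matplotlib 3.10.9. Some marker results are not reported here.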

Additional observations from a re-analysis of the deposited data

Results flagged for a closer look

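The effect of high against low MYCL differed between the lines for SRRM3, by 2.32 on the log2 scale, C4-2B minus NCI-H660 (SE 0.31, adjusted p = 2.76e-04, edgeR's quasi-likelihood test of the interaction). In C4-2B cells both MYCL libraries were above both controls, and in NCI-H660 cells both shMYCL libraries were above both shCtrl libraries, a difference that was not called. For RCOR2 the difference was 1.44 (SE 0.36, adjusted p = 0.013), with both MYCL libraries above both controls in C4-2B cells and both shMYCL libraries below both shCtrl libraries in NCI-H660 cells, where the change was not called. The RCOR2 difference was not called on log2(TPM + 1), with or without a filter or centring (down to 0.64), nor that of SRRM3 on the unfiltered values (1.06).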

How the results depend on the processing

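The calls of SRRM3 and RCOR2 in C4-2B cells and of ELAVL3 in NCI-H660 cells held under DESeq2, other size factors, other count filters, a fit of all groups and each left-out library. In C4-2B cells 1 member was higher on log2(TPM + 0.1) and 0 on log2(TPM + 1) without a filter, and 5895 genes were called with no minimum fold change, 1411 at a log2 fold change of 1 and 1940 on the unfiltered TPM values, against 3355. The split of called genes on log2(TPM + 1), where the median gene lay at -0.14, was 1006 higher and 1997 lower, against 1986 and 1369. In NCI-H660 cells 2 members were higher and 1 lower with no minimum fold change, and 0 were higher at a log2 fold change of 1 or on unfiltered TPM values. The number of all genes called was 4204 with no minimum, 1022 at a log2 fold change of 1, 1702 on log2(TPM + 1), 1600 on log2(TPM + 0.1), 1692 on centred values and 1 on unfiltered values (5469 at an unadjusted p under 0.05), against 2745. Between the lines 4 members were higher and 8512 genes called with at least 10 counts in every library, since CELF3, ELAVL3 and ELAVL4 drop out, and 0 members were lower on the 3 uncentred TPM scales, which lose REST. The split of all called genes there was 7150 higher and 6537 lower on counts, 8749 and 3560 on log2(TPM + 1) and 4837 and 7026 after centring. WIZ, a cofactor of EHMT methyltransferases that was lower in NCI-H660 shCtrl on counts (-0.65), reversed to 0.0068, 0.0073 and 0.0068 on those TPM scales. For the difference in MYCL effect, 1 member was lower with no minimum fold change (RCOR1). On log2(TPM + 1) 1 was higher, and on unfiltered TPM values 0. Centring called ELAVL3 (0.59) in place of RCOR2. ELAVL3 was at most at 0.12 TPM in the C4-2B libraries, so that value mainly repeats its NCI-H660 change. For this difference 1666 genes were called at a log2 fold change of 1 and 1898 on unfiltered TPM values, against 3513. The split on log2(TPM + 1) was 1054 higher and 1902 lower, against 1880 and 1633. Apart from fewer genes tested, the causes were not tested. Leaving out a library gave 2835 to 3556 genes called in C4-2B, 2292 to 3035 in NCI-H660, 13216 to 14157 between the lines and 2532 to 3513 for the difference in effect. Without a library, members called higher were 1 to 2 in NCI-H660 cells, and members called lower for the difference in effect 0 to 1, with RCOR1 called at -0.58 without the first C4-2B MYCL library. With the replicate block 3536, 2949, 13579 and 3436 genes were called in the 4 comparisons, with 2, 1, 7 and 2 members higher, and no member's call changed. Depth limits SRRM4, ELAVL4 and, in C4-2B cells, CELF3 and ELAVL3.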

Other observations

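The genes whose pattern over the 8 libraries was most like that of REST were ITSN2, an intersectin of endocytosis, TRIM52, NIPA1, GUCD1 and LIG3, a DNA ligase. Likeness was the Euclidean distance between log2 CPM values centred on each gene's mean, among 12446 genes, and the distances were 0.152, 0.218, 0.228, 0.236 and 0.238. ITSN2 was at 57.6 and 52.8 CPM in C4-2B control, 50.3 and 46.6 CPM in C4-2B MYCL, 26.6 and 27.4 CPM in shCtrl and 26.6 and 25.9 CPM in shMYCL libraries, so it had the same step between the lines as REST. SRRM4 was too low for a list of this kind.

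The TPM ratio of SRRM3 to REST was 0.0241 and 0.0267 in C4-2B control, 0.110 and 0.111 in C4-2B MYCL, 0.817 and 1.06 in shCtrl and 1.24 and 1.15 in shMYCL libraries. It was thus lowest in C4-2B control and did not fall when MYCL was knocked down in NCI-H660 cells. The TPM ratio of RCOR2 to RCOR1 was also lowest in C4-2B control, with overlapping values in the NCI-H660 groups, from 0.0512 and 0.0294 in C4-2B control and 0.134 and 0.147 in C4-2B MYCL to 0.285 and 0.391 in shCtrl and 0.381 and 0.398 in shMYCL libraries.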
